A study of Homo sapiens with 8 samples.

Results

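The genes described here encode 9 transcription factors of the FOXA, FOXO and GATA families, FOXA1, FOXA2, FOXA3, FOXO1, FOXO3, GATA2, GATA3, GATA4 and GATA6. They were chosen by name out of 20162 protein-coding genes. The choice used no threshold on a measured value, but it was made with earlier results of these data known. Each gene is described by the peaks of 8 CUT&Tag lists within 2 kb of its transcription start site (TSS), in its gene body and within 100 kb on either side, and gene plus flanks is called its locus.

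CUT&Tag, which tags chromatin at an antibody's target for sequencing, was used for succinylation of histone H3 lysine 23 (H3K23su) and for acetylation of lysine 27 (H3K27ac), a mark of active promoters and enhancers. The cells were HCT15, an established human colorectal cancer line, as the parental line (HCT15-Pa, labelled as treated with DMSO) and a derivative resistant to 5-fluorouracil (HCT15-FR, labelled as treated with 20 µg/mL of 5-FU, a drug that blocks thymidylate synthesis). There were 2 libraries for each mark and line, so that the comparison asked where either mark differed between resistant and parental cells. The lines stand for 1 parental and 1 resistant derivation, line and treatment cannot be told apart, the methods of the study place the resistant cells in medium without the drug shortly before experiments, and nothing in the labels says that replicates came from separate cultures, so that p-values measure only the spread between these libraries, which may be technical.

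FOXA factors are pioneer factors that open chromatin for other regulators in gut and liver endoderm, FOXA1 and FOXA2 early and FOXA3 later. FOXO1 and FOXO3 are the effectors that AKT signalling keeps out of the nucleus, and they drive genes of cell cycle arrest, metabolism and stress resistance. Of the GATA factors, GATA4 and GATA6 act in endoderm, with GATA6 expressed in colonic epithelium, whereas GATA2 and GATA3 are best known from blood, T cells and breast or urothelial epithelium.

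The lists held 65364 to 68365 H3K23su peaks and 70600 to 76676 H3K27ac peaks per library. Peaks covered 1.19 times more of the genome in HCT15-FR than in HCT15-Pa for both marks, so that longer coverage at a locus was common across all genes. Replicates of a line shared 42.6% to 57.0% of their covered bases and libraries of different lines 38.0% to 42.5%. The epithelial identity was visible at TSSs, where 6 of 10 epithelial and intestinal genes held an H3K23su peak in each HCT15-Pa library and 9 in each HCT15-FR library. H3K27ac peaks stood at 8 and 10 of these TSSs, respectively, against 1 to 3 of 9 genes of other lineages in any library. The 2 genes with H3K27ac at the TSS in both HCT15-FR libraries but no HCT15-Pa library were CDX1, an intestinal transcription factor, and KRT20, a keratin of differentiated colonocytes.

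The sequences below carry the regions that separated the lines at these loci. Overlapping or touching peaks of the 4 libraries of a mark were joined into regions. A region with a peak of at least 1 bp in both HCT15-FR libraries but no HCT15-Pa library is called FR-only, and the opposite pattern Pa-only. Shared regions hold peaks of all 4 libraries. At 7 of the 9 genes, H3K23su and H3K27ac both had an FR-only region in the same place, and no such pair existed at FOXA3 or GATA4. Of the 6 strongest by the rank of the weaker peak in its list, 5 are shown as 300 bases of hg19, plus strand, around the midpoint. The FR-only H3K23su region at the GATA6 start, which was added after its values were seen, follows them. Capitals mark exact matches, on either strand, to TGTTTAC of forkhead factors, AGATAAG of the GATA family or TGACTCA of AP-1.
FOXO1 intron (chr13:41159697-41159996): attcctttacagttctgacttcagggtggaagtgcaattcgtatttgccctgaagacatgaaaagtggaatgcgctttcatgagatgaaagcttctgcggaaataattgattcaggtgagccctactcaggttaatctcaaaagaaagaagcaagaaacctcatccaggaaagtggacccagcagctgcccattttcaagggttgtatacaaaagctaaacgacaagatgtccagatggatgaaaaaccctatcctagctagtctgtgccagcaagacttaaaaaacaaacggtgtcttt
FOXO3 downstream flank (chr6:109006177-109006476): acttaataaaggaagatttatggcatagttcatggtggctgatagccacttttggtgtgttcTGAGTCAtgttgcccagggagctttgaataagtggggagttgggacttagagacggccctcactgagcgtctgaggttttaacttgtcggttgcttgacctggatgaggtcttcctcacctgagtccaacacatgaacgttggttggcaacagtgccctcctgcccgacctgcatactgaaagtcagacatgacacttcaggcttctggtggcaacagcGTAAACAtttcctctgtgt
GATA6 upstream flank (chr18:19667656-19667955): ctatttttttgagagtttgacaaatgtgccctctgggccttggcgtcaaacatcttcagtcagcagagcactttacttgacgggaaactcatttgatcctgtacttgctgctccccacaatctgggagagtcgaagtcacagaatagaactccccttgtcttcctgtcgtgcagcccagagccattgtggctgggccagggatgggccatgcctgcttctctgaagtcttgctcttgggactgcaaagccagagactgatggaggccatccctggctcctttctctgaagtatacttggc
GATA3 upstream intron (chr10:8092416-8092715): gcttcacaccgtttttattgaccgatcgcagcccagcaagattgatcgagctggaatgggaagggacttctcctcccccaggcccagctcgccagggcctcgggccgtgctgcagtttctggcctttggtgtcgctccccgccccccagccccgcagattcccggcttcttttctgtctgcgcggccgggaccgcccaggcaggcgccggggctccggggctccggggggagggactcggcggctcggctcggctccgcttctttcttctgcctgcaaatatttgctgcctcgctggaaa
FOXA2 upstream flank (chr20:22582193-22582492): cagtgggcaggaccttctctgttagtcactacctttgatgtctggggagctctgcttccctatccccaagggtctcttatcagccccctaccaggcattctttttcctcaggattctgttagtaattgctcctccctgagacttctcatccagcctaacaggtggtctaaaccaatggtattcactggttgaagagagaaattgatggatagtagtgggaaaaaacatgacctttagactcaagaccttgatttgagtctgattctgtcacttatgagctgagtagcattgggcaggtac
GATA6 start (chr18:19749806-19750105): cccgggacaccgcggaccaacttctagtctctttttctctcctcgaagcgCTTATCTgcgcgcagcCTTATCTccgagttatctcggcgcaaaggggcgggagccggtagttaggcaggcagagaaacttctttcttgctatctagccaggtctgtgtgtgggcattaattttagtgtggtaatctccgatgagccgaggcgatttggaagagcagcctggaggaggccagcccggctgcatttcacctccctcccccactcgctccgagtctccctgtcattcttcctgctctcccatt

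The FOXO1 sequence is intronic in FOXO1. The FOXA2 sequence lies in an intron of the long noncoding RNA gene LNCNEF, and the GATA3 sequence overlaps an exon of the antisense RNA GATA3-AS1 upstream of the canonical GATA3 TSS and within the annotated extent of GATA3. The FOXO3 and GATA6 flank sequences are intergenic. The GATA6 start sequence is in the first intron of GATA6 and overlaps an exon of the antisense RNA GATA6-AS1.

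GATA6 (chr18:19749550-19782491, plus strand) showed the largest difference in kb of the 9 loci in both marks. With the stronger 50% of each list by score, FOXA2 had the larger H3K27ac difference, 6.77 kb against 6.16 kb. H3K23su peaks covered 4.29 and 4.72 kb of its locus in the HCT15-Pa libraries and 12.8 and 11.1 kb in the HCT15-FR libraries. The lines did not overlap, with means of 4.50 ± 0.303 and 11.9 ± 1.18 kb (SD, n = 2 each) and a ratio of 2.65. H3K27ac covered 7.14 and 8.12 kb against 15.015 and 13.5 kb, a ratio of 1.87, which was below the H3K27ac ratios of GATA3 and FOXA2. Among all protein-coding genes with a peak, the GATA6 difference ranked at percentile 98.7 for H3K23su and 98.2 for H3K27ac. The number of H3K23su peaks was 12 and 11 against 22 and 20. For H3K27ac the number was 16 and 17 against 18 and 18, and the mean peak width 446 and 478 bp against 834 and 748 bp. No other protein-coding gene lies in the GATA6 locus. Within 5 Mb on either side, with the locus left out, the HCT15-FR to HCT15-Pa ratio was 1.17 for H3K23su and 1.28 for H3K27ac, and on all of chromosome 18 it was 1.08 and 1.13.

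**Figure D1:**
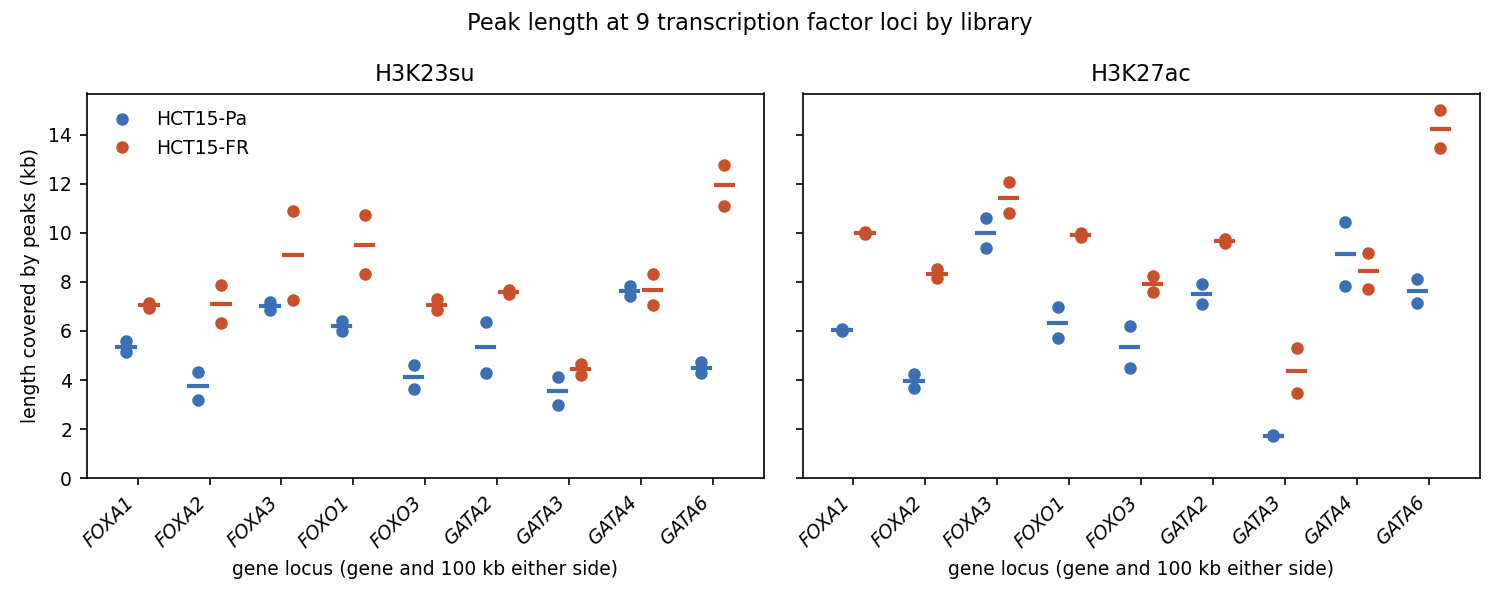
Length covered by peaks (kb, vertical axis) in the locus of each gene, for H3K23su (left) and H3K27ac (right). Each point is 1 library and each bar the mean of 2 libraries; the GATA6 points of HCT15-FR lie at 11.1 kb or above and those of HCT15-Pa at 8.12 kb or below, and only at GATA4 do the lines overlap.

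At the FOXA loci, covered length was higher in both HCT15-FR libraries for both marks. FOXA2 (chr20:22561636-22566093, minus strand), which has no other protein-coding gene in its locus, held 4.32 and 3.20 kb of H3K23su in HCT15-Pa and 6.34 and 7.89 kb in HCT15-FR, a ratio of 1.89. Its H3K27ac length was 4.24 and 3.67 kb against 8.17 and 8.51 kb, a ratio of 2.11, and this difference ranked at percentile 92.6 of all genes with a peak. In the 5 Mb around it the ratios were 1.04 and 1.01. FOXA1 (chr14:38058757-38065264, minus strand) held 5.58 and 5.14 kb of H3K23su against 7.15 and 6.95 kb, and 6.02 and 6.07 kb of H3K27ac against 9.97 and 10.0 kb. These are ratios of 1.31 and 1.66, and the replicates lay close together within each line. In the 5 Mb around FOXA1 the ratios were 1.13 and 1.24. FOXA3 (chr19:46367247-46377055, plus strand) lies in a dense locus with 11 other protein-coding genes and had the weakest separation, with H3K23su lengths of 6.85 and 7.17 kb against 10.9 and 7.26 kb. Its H3K27ac lengths were 10.6 and 9.37 kb against 12.1 and 10.8 kb. The FOXA3 ratios of 1.29 and 1.14 were close to the 1.31 and 1.15 in the 5 Mb around it. Without peaks within 2 kb of an annotated TSS of another protein-coding gene, the FOXA3 difference turned negative, to -0.44 kb for H3K23su and -0.54 kb for H3K27ac. Where another gene starts nearby, this also removes peaks in a gene's own TSS window. At FOXA1 the H3K27ac removed in HCT15-Pa, 1.34 and 1.43 kb, equalled the length in its TSS window. How much of the FOXA3 change came from its own TSS window was not tested.

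Both FOXO loci also had more peak length in HCT15-FR. FOXO1 (chr13:41129804-41240778, minus strand) held 6.41 and 5.99 kb of H3K23su in HCT15-Pa and 10.7 and 8.30 kb in HCT15-FR, and 6.98 and 5.70 kb against 9.84 and 9.98 kb of H3K27ac. The ratios were 1.53 and 1.56, although chromosome 13 as a whole had less peak length in HCT15-FR, with ratios of 0.864 and 0.888. In the 5 Mb around FOXO1 the ratios were 0.977 and 0.971. FOXO3 (chr6:108881038-109005977, plus strand) held 4.60 and 3.65 kb of H3K23su in HCT15-Pa and 6.85 and 7.29 kb in HCT15-FR, a ratio of 1.71. Its H3K27ac length was 6.21 and 4.48 kb against 8.25 and 7.60 kb, a ratio of 1.48. Here the surroundings were higher as well, with ratios of 1.36 and 1.32 in the 5 Mb on either side. In both genes the gene body took part. H3K23su covered 2.999 and 1.82 kb of the FOXO1 gene body in HCT15-Pa against 5.07 and 4.86 kb in HCT15-FR, and 2.07 and 1.24 kb of the FOXO3 gene body against 3.78 and 3.96 kb. For H3K27ac the FOXO1 gene body separated the lines, at 2.75 and 2.95 kb against 4.65 and 4.94 kb, and the FOXO3 gene body did not, at 2.72 and 1.49 kb against 2.55 and 3.09 kb.

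The other GATA genes differed among themselves. GATA3 (chr10:8087341-8117161, plus strand) had little peak length in the parental line, with 1.72 and 1.76 kb of H3K27ac, and 3.47 and 5.30 kb in HCT15-FR, a ratio of 2.52. Its H3K23su length of 2.97 and 4.11 kb against 4.19 and 4.67 kb did not overlap between the lines but lay close together. This H3K23su ratio of 1.25 was below the 1.32 in the 5 Mb around GATA3. The surrounding H3K27ac ratio was 1.31. The GATA3 gene body held no peak of either mark in any HCT15-Pa library, and in HCT15-FR it held 1.14 and 0.813 kb of H3K23su and 0.921 and 1.65 kb of H3K27ac. GATA2 (chr3:128198270-128212044, minus strand) had 4.30 and 6.38 kb of H3K23su against 7.49 and 7.66 kb, and 7.93 and 7.11 kb of H3K27ac against 9.76 and 9.60 kb. These are ratios of 1.42 and 1.29, beside 1.11 and 1.05 in the 5 Mb around GATA2. Its gene body held 1.54 and 1.61 kb of H3K23su in HCT15-Pa against 2.27 and 2.31 kb in HCT15-FR. For H3K27ac the gene body lengths overlapped, at 2.67 and 2.18 kb against 2.82 and 2.39 kb.

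GATA4 was the exception among the 9 genes. Its locus (gene at chr8:11534468-11617511, plus strand) held 7.85 and 7.41 kb of H3K23su in HCT15-Pa and 8.32 and 7.04 kb in HCT15-FR, and 7.84 and 10.4 kb of H3K27ac against 7.72 and 9.17 kb. The lines overlapped in both marks. In the 5 Mb around GATA4 the ratios were 1.10 and 0.974. In the gene body, H3K27ac covered 1.65 and 1.61 kb in HCT15-Pa and 0.385 and 0.404 kb in HCT15-FR, a ratio of 0.242, and H3K23su peaks were nearly absent, with 0 and 0.195 kb against 0.171 and 0 kb. The 8 shared H3K23su regions of the locus lay in the flanks. Of these, 1 had its midpoint at -75.4 kb from the TSS and the other 7 lay downstream, from 65.4 to 149 kb, on the side of the neighbours NEIL2, FDFT1 and CTSB.

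Counted over the list, 8 of the 9 loci had more H3K23su length in both HCT15-FR libraries than in either HCT15-Pa library, against 57.4% of the 19239 genes with an H3K23su peak, and 0 had less, against 12.4%. For H3K27ac the counts were again 8 and 0 of 9, against 56.3% and 13.7% of 19665 genes. The same 8 genes were higher in both marks, as were 44.3% of all genes, and none was lower in both, as were 6.43%. The median difference over the 9 loci was 2.23 kb for H3K23su and 2.64 kb for H3K27ac, beside 1.10 and 1.01 kb over all genes with a peak. In the gene body alone, 5 of the 9 genes were higher and 0 lower for H3K23su, against 39.4% and 12.8% of all genes, and 6 were higher and 1 lower for H3K27ac, against 38.1% and 13.4%. With 2 libraries per line, a two-sided exact permutation test of a single locus cannot give a p below 0.333, and each separated locus reached that value.

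Because the HCT15-FR lists covered more of the genome, lengths were also scaled to the total covered length of each library. On this scale 5 of the 9 genes remained higher in both HCT15-FR libraries for H3K23su, namely FOXA1, FOXA2, FOXO1, FOXO3 and GATA6, against 31.9% of all genes, and 1, GATA4, was lower, against 27.1%. For H3K27ac 7 were higher, all but FOXA3 and GATA4, against 26.7%, and GATA4 was lower, against 34.7%. The scaled GATA6 difference was 6.03 kb for H3K23su and 4.78 kb for H3K27ac, the scaled FOXA2 difference 2.43 and 3.36 kb, and the scaled GATA4 difference -1.31 and -2.22 kb.

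**Figure D2:**
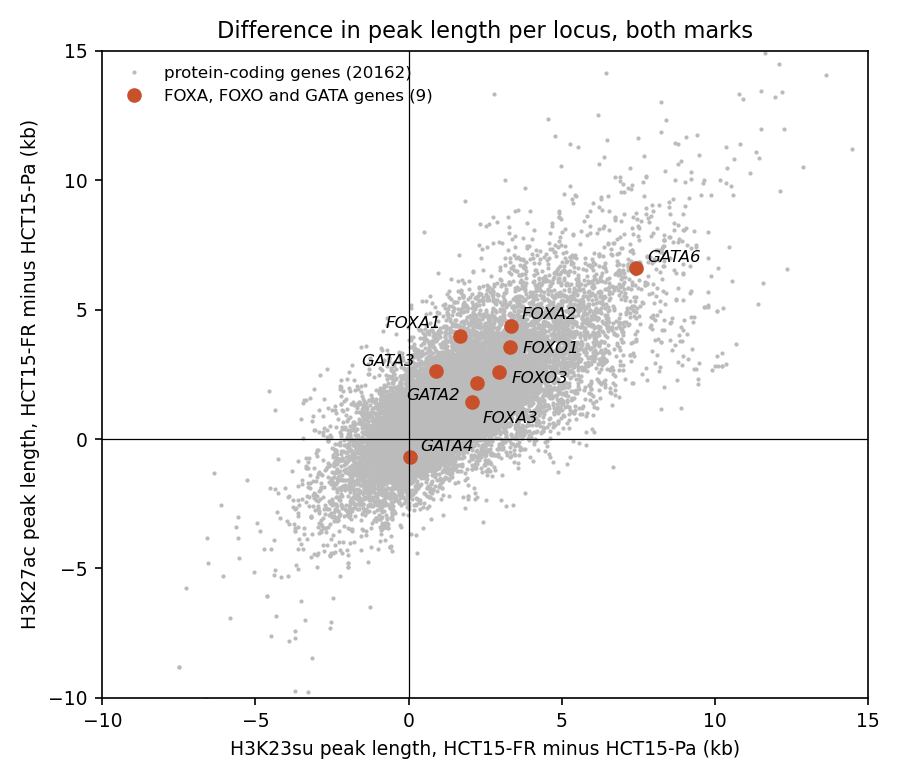
Difference in covered length per locus, HCT15-FR minus HCT15-Pa (kb), for H3K23su (horizontal axis) and H3K27ac (vertical axis). Grey points are protein-coding genes and coloured points the 9 FOXA, FOXO and GATA genes, of which GATA6 lies at 7.45 and 6.61 kb and GATA4 at 0.05 and -0.69 kb; 13 genes lie outside the axes.

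Within 2 kb of the TSS, 5 of the 9 genes had more H3K23su length in both HCT15-FR libraries (FOXA1, FOXA3, FOXO1, FOXO3 and GATA6) and 0 had less, against 43.1% and 8.38% of all genes with a peak there. For H3K27ac 3 had more (FOXA2, FOXA3 and FOXO3) and 0 less, against 31.4% and 12.8%. The 9 include genes without a peak in this window, 3 for H3K23su and 2 for H3K27ac, whereas the shares of all genes leave such genes out. Few differed in the presence of a peak. An H3K23su peak lay within 2 kb of the TSS in both HCT15-FR libraries but no HCT15-Pa library for GATA6 alone, 1 of 9 genes, as for 1.86% of all genes, and the reverse held for 0 of 9, against 1.72%. The GATA6 peak covered 0.932 and 0.911 kb of this window in HCT15-FR and was weak, at percentiles 41.3 and 11.0 of its lists by score. With only the stronger 50% of each list it was lost. H3K27ac was present at the GATA6 TSS in all 4 libraries, with 1.15 and 1.70 kb against 1.87 and 1.30 kb, so that the lines overlapped in that mark.

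FOXA2, FOXA3, FOXO1 and FOXO3 held an H3K23su peak at the TSS in all 4 libraries, as did 54.7% of all genes. At FOXO3 it covered 0.480 and 0.773 kb in HCT15-Pa and 1.22 and 1.80 kb in HCT15-FR, and at FOXA3 0.369 and 0.709 kb against 1.03 and 1.10 kb. The HCT15-FR length at FOXA3 lay wholly upstream of the annotated gene. In the FOXA3 gene body H3K23su covered 0 and 0.153 kb in HCT15-Pa and 0 and 0 kb in HCT15-FR. Whether the upstream peaks belong to FOXA3 or to a neighbour was not tested. At FOXA1 a weak peak was found in 1 HCT15-Pa library and in both HCT15-FR libraries. None of the 9 genes had an H3K27ac TSS peak in both libraries of 1 line only, against 1.42% of all genes with an FR-only and 2.19% with a Pa-only peak. H3K27ac stood at 6 of the 9 TSSs in all 4 libraries, beside 59.0% of all genes, with scores at FOXA1 and FOXA3 at or above percentile 85.2 of every list. At FOXA3 the high-scoring H3K27ac region ended at chr19:46366794, before the annotated gene start at 46367247. Inside the FOXA3 gene body H3K27ac covered 0.153 and 0 kb in HCT15-Pa and 0.201 and 0.193 kb in HCT15-FR. The HCT15-FR peaks there ranked at percentiles 10.9 and 28.3. GATA2 and GATA3 had no peak of either mark at the canonical TSS in any library, and GATA4 had an H3K27ac peak in 1 library of each line. GATA2 has 10 annotated transcript starts. Outside the window of its canonical TSS but inside the gene, it held a shared H3K23su region (chr3:128205890-128208378) and a shared H3K27ac region (chr3:128206281-128209229). With every annotated transcript start in place of the canonical one, GATA3 had an H3K27ac peak in both HCT15-FR libraries only, and with a 5 kb window it did so in both marks, whereas GATA6 then no longer had H3K23su in HCT15-FR only. Where a list has no peak, the mark was below detection at the threshold of the authors and may still be present at a lower level.

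The 9 loci held 197 merged H3K23su regions, of which 30 were FR-only, 9 Pa-only, 43 shared and 83 present in 1 library. The FR-only share was 15.2%, against 7.95% of all H3K23su regions, and the Pa-only share 4.57%, against 5.01%. Of 217 H3K27ac regions, 32 were FR-only and 8 Pa-only, shares of 14.7% and 3.69% beside 9.08% and 4.53% of all H3K27ac regions. Of the 30 FR-only H3K23su regions, 26 had their midpoint over 10 kb from the TSS, as had 35 of the 43 shared and 9 of the 9 Pa-only regions. Of the 30, 17 were intronic and 10 intergenic by that midpoint, and 1 lay at the TSS of another protein-coding gene, MYPOP in the FOXA3 locus.

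FR-only regions accounted for 14.2 kb, or 59.3%, of the H3K23su difference summed over the 9 loci and for 17.9 kb, or 67.3%, of the H3K27ac difference. By definition FR-only regions can only add length and Pa-only regions only take it away. The same split over all loci was not computed, so that these shares are not shown to be particular to the 9 loci. Shared regions added 6.02 and 10.8 kb by being covered over a greater length in HCT15-FR, and Pa-only regions took away 2.64 kb in each mark. Regions with any other pattern of libraries added 6.39 kb, or 26.6%, for H3K23su and 0.515 kb for H3K27ac, and for H3K23su they outweighed the FR-only regions at FOXO3 (1.97 against 0.975 kb) and FOXA1 (1.17 against 0.853 kb). The genes divided differently between these terms. At FOXO1 the FR-only regions alone reached 3.48 kb of H3K23su and shared regions 0.339 kb, whereas at GATA6 FR-only regions gave 4.55 kb and shared regions 1.83 kb. For H3K27ac at GATA6 the shared regions were the larger term, with 6.07 and 7.10 kb in HCT15-Pa and 10.4 and 9.21 kb in HCT15-FR.

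**Figure D3:**
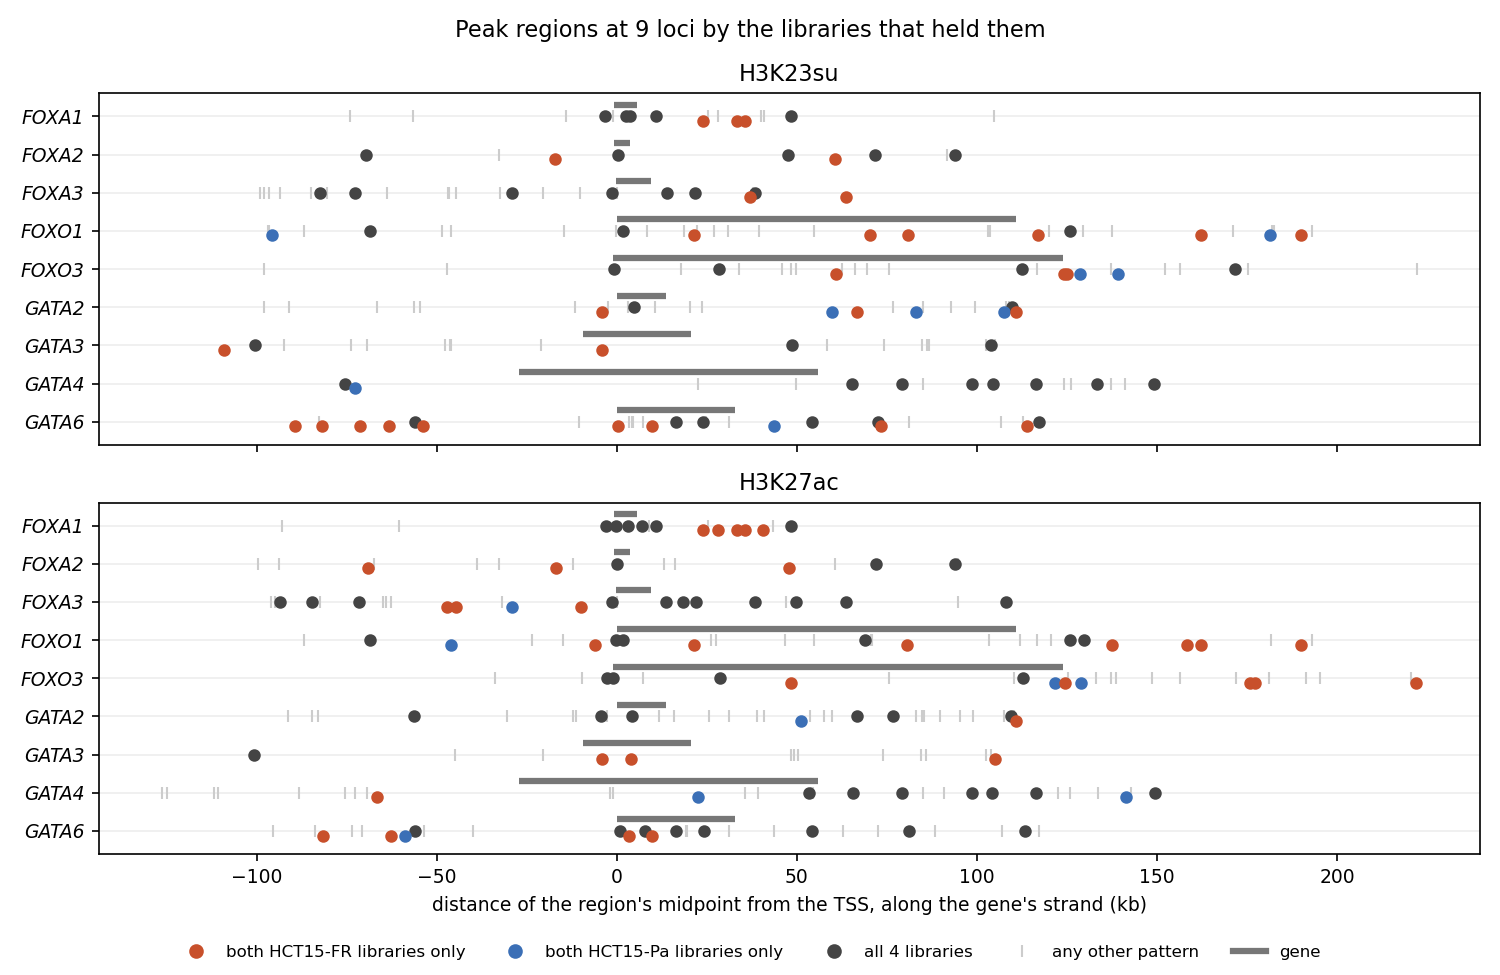
Merged peak regions at the 9 loci by distance of their midpoint from the TSS (kb, horizontal axis, positive values downstream), for H3K23su (top) and H3K27ac (bottom). Points are coloured by the libraries that held the region, ticks are regions with any other pattern, and grey bars are the genes; FR-only regions number 30 in the upper and 32 in the lower panel, against 9 and 8 Pa-only regions.

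GATA6 had 9 FR-only H3K23su regions out of 27, the most of any of the 9 genes. Of these, 5 lay upstream, with midpoints at -89.3, -81.7, -71.2, -63.1 and -53.8 kb from the TSS, 2 lay at 0.406 and 9.77 kb and 2 downstream at 73.3 and 114 kb. H3K27ac was FR-only as well in the regions at -81.7, -63.1 and 9.77 kb. The region at -81.7 kb (chr18:19667523-19668088) ranked at percentiles 60.0 and 49.5 in the H3K23su lists and the overlapping H3K27ac region at 52.1 and 58.5. A Pa-only H3K27ac region lay at -58.9 kb, at percentiles 67.8 and 70.8.

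**Figure D4:**
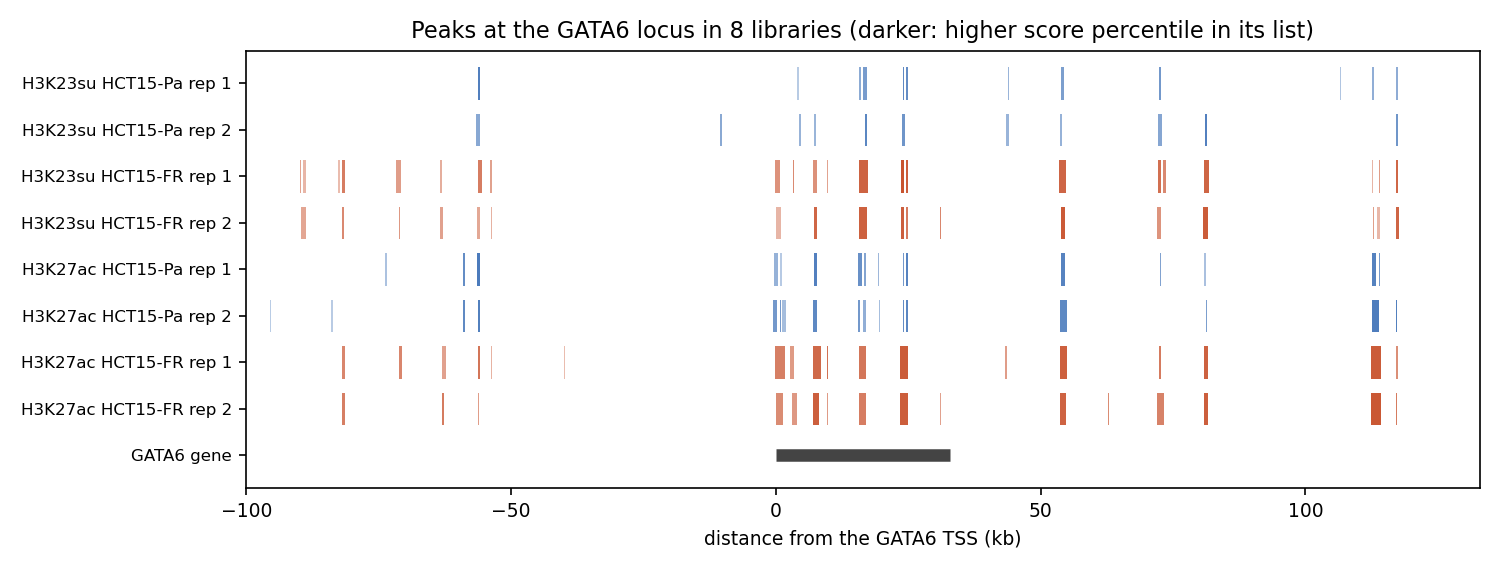
Peaks at the GATA6 locus in the 8 libraries by distance from the TSS (kb), drawn to scale and darker with a higher percentile of score in their own list. The upstream H3K23su peaks of the HCT15-FR libraries between -89.3 and -53.8 kb stand beside the shared region at -56.1 kb, which the HCT15-Pa libraries also hold.

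FOXO1 had 6 FR-only H3K23su and 7 FR-only H3K27ac regions, and 2 and 1 Pa-only regions. Its upstream flank had less H3K23su length in HCT15-FR, at 2.35 and 2.84 kb in HCT15-Pa against 1.62 and 1.47 kb. For H3K27ac the lines overlapped in this flank. The intronic region shown above (chr13:41159151-41160543), 80.9 kb into the gene, was the strongest of the named regions, at percentiles 82.7 and 81.9 for H3K23su and 73.1 and 85.7 for H3K27ac. Further pairs in both marks lay at 21.4, 162 and 190 kb from the TSS. FOXO3 had 3 and 5 FR-only regions, and its pair in both marks (chr6:109006075-109006579) lay just past the end of the gene at percentiles 68.8 and 91.7 for H3K23su. It was followed downstream by a Pa-only region in both marks (chr6:109010554-109011121), the only Pa-only pair of the 9 loci.

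At FOXA1 all 3 FR-only H3K23su regions and all 5 FR-only H3K27ac regions lay in a stretch of MIPOL1 introns 24.0 to 40.5 kb downstream of the FOXA1 TSS, and the 3 H3K23su regions each overlapped an FR-only H3K27ac region. The strongest ranked at percentiles 61.9 and 87.9 for H3K23su and 74.8 and 79.1 for H3K27ac. FOXA2 had 1 such pair, at -17.1 kb (chr20:22581956-22582730), and GATA3 1 at -4.09 kb (chr10:8091998-8093134). The GATA2 pair (chr3:128100878-128101304) lay in an EEFSEC intron 111 kb from the TSS and ranked at percentile 14.9 in its weaker list. The GATA2 locus held as many Pa-only as FR-only regions, 3 and 3 for H3K23su and 1 and 1 for H3K27ac. Its number of peaks overlapped between the lines in both marks. GATA4 had 0 FR-only H3K23su regions.

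An FR-only H3K27ac region lay over 15 of the 30 FR-only H3K23su regions, which is 50.0% (95% exact binomial interval 31.3% to 68.7%, covering counting error only), beside 35.8% genome-wide. A further 5 overlapped a shared H3K27ac region, as at the GATA6 start, and 4 overlapped none, beside 17.1% and 17.5% genome-wide, and 0 overlapped a Pa-only one. Of the 43 H3K23su regions shared by all libraries, 32 coincided with an H3K27ac region that was shared too, which is 74.4% beside 80.3% genome-wide.

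Motif matches were counted in the 400 bases around the midpoints of the regions. A forkhead match was present in 4 of the 30 FR-only H3K23su regions, at FOXA2, FOXO3, GATA3 and GATA6, beside 11.5% of all FR-only and 6.72% of all H3K23su regions. In shared H3K23su regions of the 9 loci it was present in 8 of 43, beside 6.47% of all shared regions. For H3K27ac a forkhead match was present in 2 of the 32 FR-only regions, beside 13.1% of all FR-only regions, and in 10 of 52 shared regions, beside 6.25%. A GATA match was present in 1 of 30, the GATA6 start shown above, which holds 2 matches, beside 7.91% of all FR-only regions. An AP-1 match was present in 3 of 30, beside 21.0%. No motif overlaps another in the printed sequences, and a match is a description of letters only.

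Of 41 other forkhead and GATA genes, 27 loci were higher and 5 lower in both HCT15-FR libraries for H3K23su, and 21 higher and 5 lower for H3K27ac, against 57.4% and 12.4% of all genes for H3K23su and 56.3% and 13.7% for H3K27ac, with a median difference of 0.989 and 1.55 kb. FOXB1, a forkhead gene of the developing brain, was the only gene of this list whose TSS separated the lines in both marks. Its locus held 1.26 and 1.89 kb of H3K23su and 2.29 and 1.92 kb of H3K27ac in HCT15-Pa, against 0 and 0 kb and 0 and 0.184 kb in HCT15-FR. FOXD1 and FOXJ1 had an H3K23su TSS peak in both HCT15-FR libraries only and FOXL2 an H3K27ac peak of at most 0.022 kb in the window, whereas FOXD3 and FOXL1 held an H3K27ac TSS peak in both HCT15-Pa libraries only.

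Among 30 genes that act on FOXO factors or are known FOXO targets, 17 loci were higher and 5 lower for H3K23su, against 57.4% and 12.4% of all genes, and 20 higher and 6 lower for H3K27ac, against 56.3% and 13.7%. TSS peaks of H3K27ac were in place in all 4 libraries for 25 of them, beside 59.0% of all genes. IRS2, an insulin receptor substrate and FOXO target, was the gene whose TSS separated the lines, with an H3K23su peak of 0.385 and 0.146 kb in HCT15-FR only. In the same window H3K27ac went the other way, at 1.18 and 1.40 kb in HCT15-Pa against 0.83 and 0.462 kb in HCT15-FR. The IRS2 locus as a whole had less of both marks in HCT15-FR. H3K23su was 5.615 and 4.81 kb in HCT15-Pa against 4.15 and 4.31 kb, and H3K27ac 7.91 and 7.63 kb against 3.52 and 3.53 kb. The gene lies on chromosome 13, where peak length was lower in HCT15-FR.

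Of 25 genes of factors that work with FOXA or GATA proteins, 14 loci were higher and 3 lower for H3K23su, against 57.4% and 12.4% of all genes, and 13 higher and 4 lower for H3K27ac, against 56.3% and 13.7%. At CDX1 the TSS window held no peak in HCT15-Pa, and in HCT15-FR it held 0.574 and 0.456 kb of H3K23su and 0.665 and 0.508 kb of H3K27ac. Its locus held 7.53 and 7.27 kb of H3K27ac in HCT15-Pa and 13.8 and 15.5 kb in HCT15-FR. GRHL2, an epithelial factor, held 1.40 and 1.53 kb of H3K23su at its TSS in HCT15-Pa only, and its H3K27ac coverage there was 1.42 and 1.93 kb against 0.168 and 0 kb. TFAP2A had an H3K23su TSS peak in HCT15-FR only, of 0.308 and 0.408 kb.

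For the 8 genes that were higher in both marks, the genes with the most similar pattern were those at the smallest Euclidean distance over the 8 libraries in log2 of the covered locus length in kb plus 1. The nearest to GATA6 were CTRC, KPNA7 and SYTL2, at distances of 0.422, 0.427 and 0.435. CREBZF and CCDC89, neighbours with the same locus values, were nearest to FOXA2 at 0.305, THY1 to FOXA1 at 0.220, ACSF3 to FOXA3 at 0.173, and KLHL36 to FOXO1 at 0.223. ELOVL3 and PITX3 were nearest to FOXO3 at 0.233, CEACAM3 to GATA2 at 0.217 and CCDC50 to GATA3 at 0.477. None of these 8 genes had another of the 9 among its 3 nearest.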

How the data were processed

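CUT&Tag of H3K23su and H3K27ac was done on fresh HCT15-Pa and HCT15-FR cells, with 2 libraries per mark and line grouped by their labels. The submitters' processing notes name Bowtie2, SAMtools, MACS2, HOMER 4.10 and deepTools with hg19. Per the methods of the study, properly paired, uniquely mapped reads without duplicates were kept, peaks were called by MACS2, and the broad option was used for H3K27ac, so that peak length is compared within a mark only. Each library has its own list. The deposited lists give coordinates, a peak name and the authors' score, −log10 of the MACS2 P value, which served here only to rank peaks within a list. The read depth behind the lists is unknown, and read counts and spike-in values were not used here.

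Genes, TSSs (the canonical transcript for 98.6% of genes) and features came from GENCODE release 44 on GRCh37, and sequences from a genome of that build. Covered length, peak number and presence of peaks were computed per library in Python 3.11.15 with numpy 2.4.6, pandas 2.3.3 and scipy 1.17.1, and drawn with matplotlib 3.10.9. The calculations were tested on simulated data. A locus was called higher or lower where both libraries of a line exceeded both of the other, and an exact permutation test over libraries, two-sided, was applied to single loci. The members and the gene lists were chosen with earlier results of these data known. From the other lists, genes are named when the TSS window separated the lines in both marks, or, where fewer than 3 did, in at least 1 mark, up to 6 per list by the size of the H3K23su difference. For each member 1 region is named, that unique to a line in both marks with the highest rank of its weaker H3K23su peak. Sequences at GATA4 are not shown, and 1 of the named regions' sequences and 1 listed gene that met the rule are not reported here. Of 10 marker genes of other lineages, 9 matched the annotation.

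Alternatives were lists of equal length, a common minimum score, the stronger 50% of peaks, scaled length, peak number, other windows and transcript starts, merging within 500 bp, 50% coverage of a region, a replicate block, each library left out and, chosen after seeing the data, leaving out peaks at the TSS of other genes.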

Additional observations from a re-analysis of the deposited data

How the results depend on the processing

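The counts of loci rested in part on how length was measured. Of the 9 genes, 8 had more H3K23su length in both HCT15-FR libraries. This count was 4 with the stronger 50% of each list, 5 with lengths scaled to each library's total, 3 with the number of peaks in place of length and 5 in the gene body only. Over all genes the shares higher in these settings were, in the same order, 54.0%, 31.9%, 24.5% and 39.4%. With the stronger 50%, the 4 of 9 thus lay below the share of all genes. The corresponding H3K27ac count of 8 stayed between 6 and 8. Where the share of all genes was computed, it lay between 26.7% and 61.4% for this mark. The number with less H3K23su length, 0, was 1 with scaled lengths (GATA4) and 1 with the number of peaks (GATA3), and ranged from 0 to 1 with 1 library left out (1 without HCT15-FR replicate 1). Over all genes the shares lower were 27.1% with scaled lengths and 16.7% with the number of peaks. The number with less H3K27ac length, 0, was 1 with the stronger 50% (FOXA3), beside 13.8% of all genes. It was also 1, GATA4, with scaled lengths (34.7% of all genes), with the number of peaks (14.4%) and in the gene body (13.4%). Without peaks at the TSS of other genes, an alternative chosen after seeing the data, it was 2 (FOXA3 and GATA4), and it ranged from 0 to 1 with 1 library left out (1 without HCT15-Pa replicate 1 or HCT15-FR replicate 2).

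Replicate numbers carry no stated pairing, and same-numbered libraries did not deviate together (correlations of 0.0028 and 0.0057 over 20162 genes). With a replicate block, that is, differences within each replicate number, the counts higher were again 8 and 8. By construction these counts could not fall, because a locus separated without the block is also higher within each replicate number. Over all genes the shares higher were 63.0% and 61.4%. The number with less H3K27ac length was 1 (GATA4) in place of 0, beside 16.5% of all genes. The TSS counts stayed at 1 and 0 by construction.

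The single H3K23su TSS peak found in HCT15-FR only became 0 with the stronger 50%, and 1 to 2 with 1 library left out (FOXA1 joined GATA6 without HCT15-Pa replicate 1). With a 5 kb window it stayed at 1 but was GATA3, not GATA6. The H3K27ac count of 0 became 1, GATA3, with a 5 kb window and with any transcript start. FR-only regions exceeded Pa-only regions by 21 for H3K23su and 24 for H3K27ac. With the stronger 50% the excess was 10 and 13, and with a 50 kb flank the H3K23su excess was 12. Leaving out a library lets a region qualify on 1 library of that line, and the excess then ranged from 8 to 45 for H3K23su and from 5 to 49 for H3K27ac, low without either HCT15-Pa library and high without either HCT15-FR library. The share of FR-only H3K23su regions that overlapped an FR-only H3K27ac region ranged from 35.7% to 58.8%. The lowest values were 35.7% with the stronger 50% and 36.2% without HCT15-FR replicate 2. Both lay near the genome-wide 35.8% of the main setting, and the genome-wide share was not recomputed for the alternatives.

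Of 198 recomputed single-gene differences, 183 kept their sign and 157 moved by less than 1 replicate SD. Both counts include the replicate block, where differences cannot move. The sign changed in 15, of which 11 were at GATA4, where the lines overlapped from the outset (8 for H3K23su, first 0.05 kb, and 3 for H3K27ac, first -0.69 kb), and 4 at FOXA3, where the lines had been separated. For H3K27ac FOXA3 gave -0.69 kb with the stronger 50%, -0.39 kb with scaled lengths and -0.54 kb without peaks at the TSS of other genes, and for H3K23su -0.44 kb without those peaks. The cause was not tested. Read depth and mark levels below the authors' threshold are unknown here.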
